A study of Homo sapiens with 6 samples.

Results

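Protein synthesis draws on a supply of free amino acids and on the enzymes that load them onto transfer RNAs. The genes followed here were 37 of the 37993 gene symbols in the count table, chosen by name as genes of that supply. They were 20 cytosolic aminoacyl-tRNA synthetases, 5 genes of serine synthesis and mitochondrial one-carbon metabolism, 5 genes of asparagine, cysteine and proline synthesis, and 7 amino acid transporters. HEK293T is an easily transfected human embryonic kidney cell line. It was grown without transfection or with an overexpressed allele of ATF6, the transcription factor of the endoplasmic reticulum (ER) stress response that is linked to the cone disorder achromatopsia. The 6 libraries came from cells labelled as a non-transfected control, as WT, as the missense allele M67V, as the nonsense allele N267star, or as ex2-3del or ex8-14del, alleles lacking several exons. An empty vector is mentioned in the growth protocol but not in the label of the control, and all cultures carried the endogenous ATF6 gene. In a second deposited count table, the column with the library prefix of WT carries a number in place of that name, which no source used here explains. Whether the WT construct was full length is not stated, and this limits what the WT values stand for.

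With 1 library a group there were no replicates, and nothing below is a test of a condition. Library totals ran from 16023952 to 16813355 counts. Levels are counts scaled to a common library total (CPM) after correction for library composition. Ratios are log2 ratios of CPM with an exact 95% interval of the 2 counts in brackets, which covers counting error only and compares libraries rather than conditions. A gene met the 1.5-fold criterion (0.585 on the log2 scale) when 2 libraries were that far apart, the interval left out 0 and 1 of them reached 5 CPM. A smaller criterion of 0.322 on the log2 scale was applied in the same way. The labels were checked on ATF6, which had 85.1 CPM without transfection. ATF6 had 1148 CPM with WT, 1493 with M67V, 713 with N267star, 1349 with ex2-3del and 2410.0 with ex8-14del. Its level thus differed between the alleles, and the part of this in comparisons between them was not tested. HSPA5, the ER chaperone BiP and a target of active ATF6, had 559 CPM without transfection, 3634 with WT and 3375 with M67V, and between 599.7 and 741 CPM with the other 3 alleles. All 37 members held at least 5 CPM in every library.

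As background, cells that sense amino acid shortage or ER stress translate the transcription factor ATF4, which raises many genes of amino acid import, amino acid synthesis and tRNA charging. ATF4 binds together with C/EBP factors at a composite element whose core reads TGATGNAAN. ATF6 binds elements with the core TGACGTG, and the longer ER stress response element. RefSeq promoter windows of GRCh38.p14, from 250 bases before to 50 bases after the annotated start, were matched to 29 of the 37 members, with 42 windows in all. The letters TGATGNAAN were found on either strand in 12 of these 42 windows (28.6%), each from a different member, against 3.61% of all 35116 windows. TGACGTG was found in 2 of the 42 (4.76%, CARS and ALDH18A1) against 1.97% of all windows. Both of these also matched the longer TGACGTGG, which contains it and which 0.729% of all windows hold. The ER stress response element was found in 0 of the 42 windows and in 0.077% of all windows.

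The stretches of 70 bases below show the match in 7 of the 12 members, chosen after their values were seen. They include SLC1A4, which differed most between the libraries among the 12, others that differed little, such as IARS and ASNS, and the related carrier SLC1A5. SLC3A2, MARS and the other matches are not printed. Each reads 5′ to 3′ on the strand of its gene, and the capitals mark the match of TGATGNAAN, which is on the opposite strand in SLC1A4, AARS, IARS and TARS. The coordinates are of GRCh38.p14, which is not the build of the count table.
SLC1A4 (chr2:64989349-64989418, plus strand): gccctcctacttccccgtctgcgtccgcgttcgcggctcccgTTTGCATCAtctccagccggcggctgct
SLC7A1 (chr13:29595669-29595738, minus strand): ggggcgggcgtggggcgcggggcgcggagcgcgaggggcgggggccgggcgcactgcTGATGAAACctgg
SLC1A5 (chr19:46784872-46784941, minus strand): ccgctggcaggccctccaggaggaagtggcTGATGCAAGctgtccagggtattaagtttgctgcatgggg
ASNS (chr7:97872437-97872506, minus strand): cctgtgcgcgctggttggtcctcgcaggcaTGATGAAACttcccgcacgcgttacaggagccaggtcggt
AARS (chr16:70289655-70289724, minus strand): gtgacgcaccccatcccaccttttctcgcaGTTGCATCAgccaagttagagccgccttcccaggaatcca
IARS (chr9:92293678-92293747, minus strand): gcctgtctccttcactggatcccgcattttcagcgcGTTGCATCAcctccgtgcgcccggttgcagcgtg
TARS (chr5:33440915-33440984, plus strand): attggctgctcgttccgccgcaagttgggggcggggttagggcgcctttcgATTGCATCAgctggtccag
A match is a description of letters and does not show that a factor was bound. Of the 12 members with a match, SLC1A4 and SLC7A1 met the 0.322 criterion in WT over the non-transfected library, and ASNS, IARS and TARS did not. The median log2 ratio was 0.13 over these 12 members and -0.0005 over the 17 whose windows held no match, of which 4 met the criterion (CTH, MTHFD2, PSAT1 and WARS). In M67V the medians were 0.09 and 0.06, and 3 of the 12 and 2 of the 17 met it. Of the 8 members without a window, 1 met it in WT and 2 in M67V. Of all genes tested, 3.96% met it upwards in WT and 3.84% in M67V.

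Across the 37 members, a few were much higher in WT and M67V, and small differences upwards were common in all 5 transfected libraries. The whole interval lay above 0 for 17 members with WT and 18 with M67V, where this held for 16.03% and 11.4% of all genes tested. The N267star library had 16 such members against 15.6% of genes, ex2-3del had 15 against 10.1%, and ex8-14del had 14 against 12.6%. Intervals narrow with the count. In WT, 2 members were at least 1.5-fold higher (5.41%), against 1.4% of the 11301 genes tested, and 7 met the 0.322 criterion upwards (18.9%), against 3.96%. In M67V, 2 members were at least 1.5-fold higher, against 1.62% of 11304 genes, and 7 met the 0.322 criterion upwards, against 3.84%. No member met it downwards in either library, against 2.21% of genes in WT and 1.06% in M67V, nor was any 1.5-fold lower, against 0.319% and 0.239%. The median log2 ratio of the members was 0.06 in WT and 0.07 in M67V, and that of all genes tested was -0.007 and -0.003. In N267star, ex2-3del and ex8-14del, 0 members met the 0.322 criterion in either direction, with medians of 0.04, 0.04 and 0.05. SLC3A2 in ex2-3del, at 0.321 (0.24 to 0.40), lay just under it. Among all genes tested, the criterion was met upwards by 1.38%, 1.21% and 1.59% in these 3 libraries. Downwards it was met by 2.17%, 1.21% and 1.78%. These 5 comparisons share the non-transfected library.

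**Figure D1:**
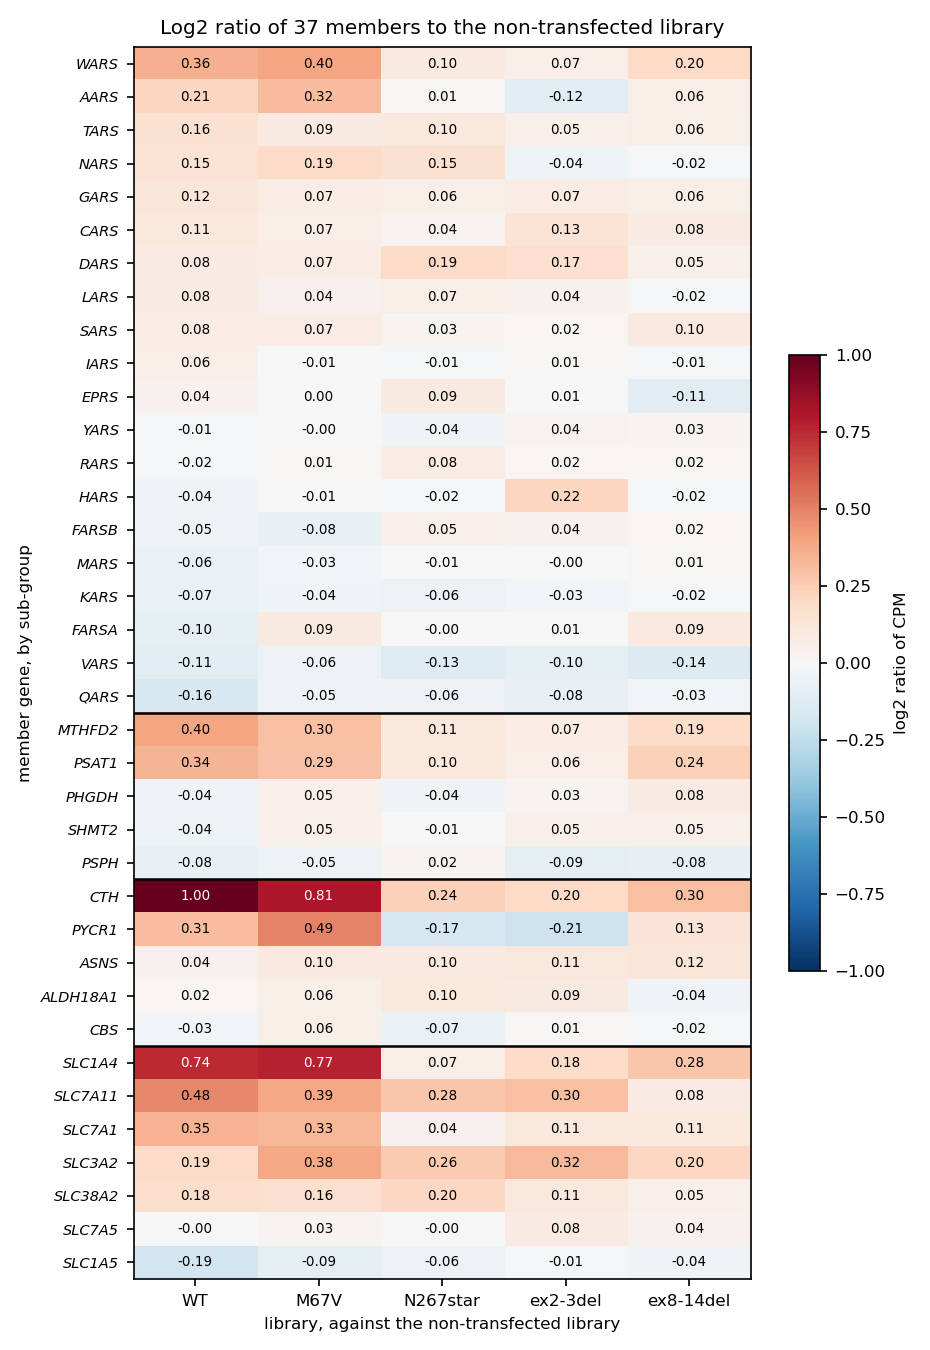
Log2 ratio of CPM of each of the 37 members (rows, by sub-group, sorted by WT) in 5 libraries against the non-transfected library (columns). The strongest colours lie in the WT and M67V columns at CTH (1.0 and 0.81) and SLC1A4 (0.74 and 0.77), while most of the 20 synthetases in the upper block are close to 0.

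The transporters were the sub-group with the highest median, at 0.19 in WT and 0.33 in M67V. Of the 7, 3 and 4 met the 0.322 criterion upwards there, against 3.96% and 3.84% of all genes. The whole interval lay above 0 for 5 of the 7 in WT and in M67V, against 16.03% and 11.4% of all genes tested. However, it did for 6 in ex2-3del, against 10.1%. In N267star and in ex8-14del it did for 3, against 15.6% and 12.6%. These shares are of genes at all counts, and intervals narrow with the count. SLC1A4 encodes ASCT1, a sodium-dependent carrier of alanine, serine, cysteine and threonine. Its level was 28.3 CPM without transfection, 47.5 with WT, 48.4 with M67V, 29.6 with N267star, 32.2 with ex2-3del and 34.3 with ex8-14del. WT and M67V stood above the other 4 libraries, which lay between 28.3 and 34.3 CPM. The log2 ratio to the non-transfected library was 0.74 (0.58 to 0.91) in WT and 0.77 (0.61 to 0.94) in M67V. Against WT it was -0.68 (-0.85 to -0.51) in N267star, -0.56 (-0.72 to -0.40) in ex2-3del and -0.47 (-0.63 to -0.31) in ex8-14del, while the interval of M67V against WT spanned equality (0.03, -0.12 to 0.18). Its relative SLC1A5 encodes ASCT2, the main glutamine carrier of many cultured cells. SLC1A5 stood at 387 CPM without transfection, 339 with WT, 364 with M67V, 372 with N267star, 383 with ex2-3del and 376 with ex8-14del. Here WT and M67V were the 2 lowest libraries, with log2 ratios of -0.19 (-0.24 to -0.14) and -0.09 (-0.14 to -0.04) to the non-transfected library.

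SLC7A1, the cationic amino acid carrier CAT1 for arginine and lysine, was at 289 CPM without transfection, 369 with WT, 365 with M67V, 298 with N267star, 312 with ex2-3del and 311 with ex8-14del. WT and M67V lay above all other libraries, at log2 ratios of 0.35 (0.30 to 0.41) and 0.33 (0.28 to 0.39). SLC7A11, the cystine and glutamate exchanger xCT, was at 49.4 CPM without transfection, 68.9 with WT, 64.8 with M67V, 60.1 with N267star, 60.8 with ex2-3del and 52.4 with ex8-14del. It was also highest in WT and M67V (0.48, 0.35 to 0.61, and 0.39, 0.26 to 0.52). However, N267star and ex2-3del were above the non-transfected library as well (0.28, 0.15 to 0.42, and 0.30, 0.16 to 0.43), and ex8-14del was not beyond counting error (0.08, -0.06 to 0.22).

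SLC3A2 encodes the heavy chain 4F2hc that carries SLC7A11 and SLC7A5 to the cell surface. Its level was 138 CPM without transfection, 158 with WT, 181 with M67V, 166 with N267star, 173 with ex2-3del and 159.5 with ex8-14del. All 5 transfected libraries were above the non-transfected one, with log2 ratios from 0.19 in WT to 0.38 in M67V, and WT was the lowest of the 5. SLC7A5, the large neutral amino acid carrier LAT1, stayed between 376 and 399 CPM in all 6 libraries, and its ratio in WT was -0.001 (-0.05 to 0.05). SLC38A2, the sodium-coupled neutral amino acid carrier SNAT2, lay between 169 and 195 CPM. Its highest level was in N267star (0.20, 0.13 to 0.28), so it did not set WT and M67V apart.

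**Figure D2:**
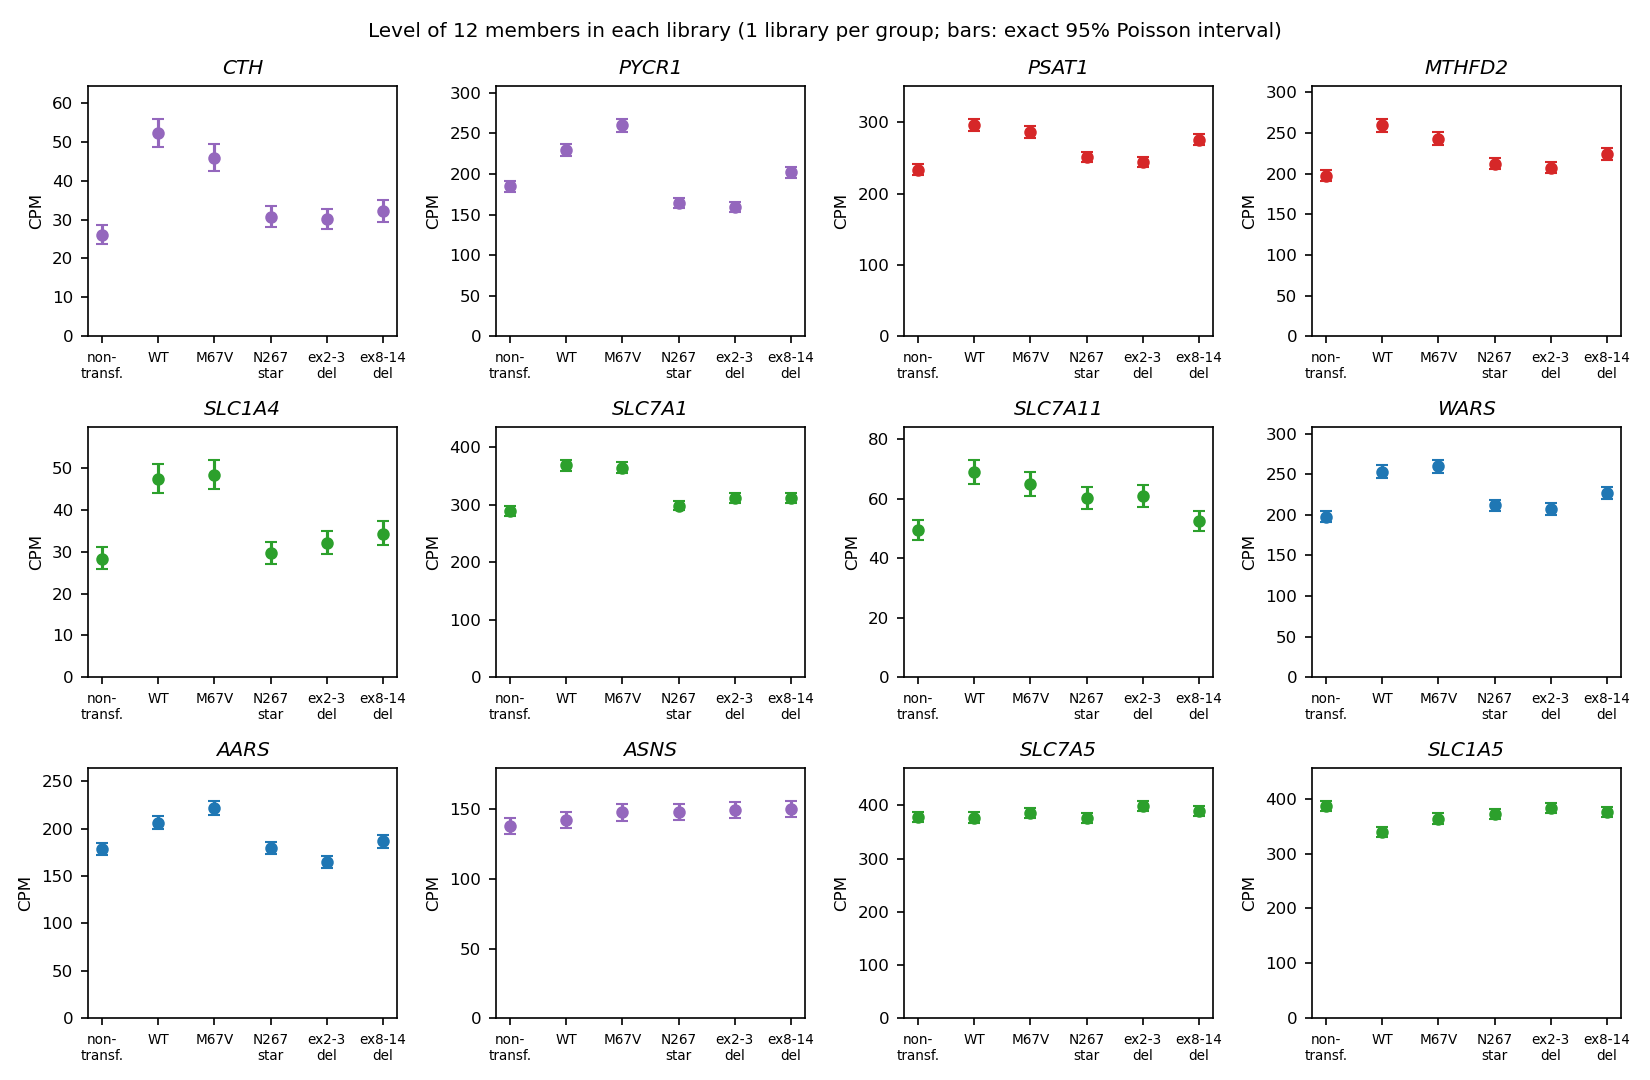
Level in CPM (vertical axis, from 0) of 12 members in the 6 libraries (horizontal axis), coloured by sub-group. Points are single libraries and bars are exact 95% Poisson intervals of the count. In CTH and SLC1A4 the WT and M67V points stand clear of the other 4, and in ASNS and SLC7A5 the 6 points lie close together.

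Among the genes of asparagine, cysteine and proline synthesis, CTH and PYCR1 differed between the libraries and ASNS, CBS and ALDH18A1 hardly did. CTH encodes cystathionine gamma-lyase, which releases cysteine from cystathionine in the last step of transsulfuration. Its level was 26.1 CPM without transfection, 52.2 with WT, 45.9 with M67V, 30.7 with N267star, 30.01 with ex2-3del and 32.1 with ex8-14del. WT had 2.0 times the non-transfected level (1.0, 0.83 to 1.18) and M67V 1.76 times (0.81, 0.64 to 0.99). CTH had the widest range over the 6 libraries of the 37 members. M67V was below WT (-0.19, -0.33 to -0.04). N267star, ex2-3del and ex8-14del were each slightly above the non-transfected library, at 0.24 (0.05 to 0.42), 0.20 (0.02 to 0.39) and 0.30 (0.12 to 0.49), and far below WT, at -0.76, -0.80 and -0.70.

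CBS encodes cystathionine beta-synthase, which makes the substrate of CTH. Its level was 219 CPM without transfection, 215 with WT, 228 with M67V, 209 with N267star, 220.0 with ex2-3del and 215 with ex8-14del. The ratio was -0.03 (-0.09 to 0.04) in WT. The table also lists CBSL, a near-identical copy, with between 3715 and 4066 counts, so reads could have been split between the 2 names and the CBS count is uncertain. CBSL stood at -0.09 (-0.15 to -0.02) in WT and -0.03 (-0.09 to 0.04) in M67V.

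PYCR1 encodes the mitochondrial pyrroline-5-carboxylate reductase that completes proline synthesis. Its level was 185 CPM without transfection, 229 with WT, 260.1 with M67V, 165 with N267star, 159.6 with ex2-3del and 202 with ex8-14del. M67V was the highest library (0.49, 0.43 to 0.56), followed by WT (0.31, 0.24 to 0.38) and ex8-14del (0.13, 0.06 to 0.20). N267star and ex2-3del were below the non-transfected library (-0.17, -0.24 to -0.09, and -0.21, -0.29 to -0.13). M67V was also above WT (0.18, 0.12 to 0.25), the reverse of the order in CTH. ALDH18A1, which encodes the enzyme of the preceding steps from glutamate, lay between 264 and 290.0 CPM and had ratios of 0.02 in WT and 0.06 in M67V.

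ASNS, the asparagine synthetase and a well-studied ATF4 target, was at 138 CPM without transfection, 142 with WT, 148 with M67V, 148 with N267star, 149 with ex2-3del and 150.3 with ex8-14del. The non-transfected library was the lowest and WT the second lowest. The ratio was 0.04 (-0.04 to 0.13) in WT, 0.10 (0.01 to 0.18) in M67V and 0.12 (0.04 to 0.20) in ex8-14del. The ASNS level thus did not separate WT and M67V from the other transfected libraries.

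Of the serine and one-carbon genes, PHGDH, PSPH and SHMT2 differed little. PSAT1 and MTHFD2 met the 0.322 criterion in WT, where 3.96% of all genes did so upwards. In M67V 0 of the 5 met it, against 3.84% of all genes, although the intervals of PSAT1 and MTHFD2 lay above 0. PSAT1, the phosphoserine aminotransferase of the middle step of serine synthesis, was at 234 CPM without transfection, 296 with WT, 286 with M67V, 251 with N267star, 244 with ex2-3del and 275 with ex8-14del. Its ratio was 0.34 (0.28 to 0.40) in WT, 0.29 (0.23 to 0.35) in M67V and 0.24 (0.17 to 0.30) in ex8-14del, so the last of these was closer to M67V than to the non-transfected library. MTHFD2, a mitochondrial folate enzyme that acts downstream of serine cleavage, was at 197 CPM without transfection, 259 with WT, 243 with M67V, 212 with N267star, 207 with ex2-3del and 224 with ex8-14del. Its ratio was 0.40 (0.33 to 0.46) in WT, 0.30 (0.23 to 0.37) in M67V and 0.19 (0.12 to 0.26) in ex8-14del. MTHFD2 overlaps the expressed gene SLC4A5 on the opposite strand, which lay between 10.0 and 11.6 CPM.

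PHGDH, which encodes the first enzyme of serine synthesis, was at 366 CPM without transfection, 357 with WT, 379.8 with M67V, 356 with N267star, 372.9 with ex2-3del and 387 with ex8-14del. Its ratio was -0.04 (-0.09 to 0.02) in WT and 0.05 (0.003 to 0.11) in M67V. PSPH, which encodes the phosphatase of the last step, was at 33.7 CPM without transfection, 31.98 with WT, 32.6 with M67V, 34.2 with N267star, 31.6 with ex2-3del and 31.9 with ex8-14del. With these low counts its ratio was -0.08 (-0.25 to 0.10) in WT and -0.05 (-0.23 to 0.13) in M67V. SHMT2, the mitochondrial serine hydroxymethyltransferase, lay between 247 and 264 CPM, at -0.04 (-0.11 to 0.02) in WT and 0.05 (-0.01 to 0.11) in M67V. Of the 3 serine synthesis genes, PSAT1 was thus the 1 that met the 0.322 criterion in WT, and the median of the sub-group was -0.04 in WT and 0.05 in M67V.

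Most of the 20 cytosolic synthetases had nearly even levels. In WT and in M67V the medians were 0.05 and 0.03. In each of these libraries 1 of the 20 met the 0.322 criterion upwards, against 3.96% and 3.84% of all genes. This was WARS, the tryptophanyl-tRNA synthetase, at 198 CPM without transfection, 253 with WT, 259.9 with M67V, 212 with N267star, 207 with ex2-3del and 227 with ex8-14del. Its ratio was 0.36 (0.29 to 0.42) in WT, 0.40 (0.33 to 0.46) in M67V and 0.20 (0.13 to 0.27) in ex8-14del, and WT and M67V were above all other libraries. WARS overlaps WDR25 on the opposite strand, which stayed between 8.64 and 10.7 CPM.

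AARS, the alanyl-tRNA synthetase, was at 178 CPM without transfection, 206 with WT, 222 with M67V, 179.8 with N267star, 164 with ex2-3del and 187 with ex8-14del. M67V was the highest and ex2-3del the lowest library, with ratios of 0.317 (0.25 to 0.39), just under the 0.322 criterion, and -0.12 (-0.19 to -0.04) to the non-transfected one, and WT stood at 0.21 (0.14 to 0.28). TARS, the threonyl-tRNA synthetase, was at 375 CPM without transfection, 418 with WT, 399 with M67V, 403 with N267star, 389 with ex2-3del and 392 with ex8-14del. Its ratio was 0.16 (0.11 to 0.21) in WT and 0.09 (0.04 to 0.14) in M67V. N267star was slightly further from the non-transfected library than M67V in this gene (0.10, 0.05 to 0.15). QARS, the glutaminyl-tRNA synthetase, was at 213 CPM without transfection, 191 with WT, 206 with M67V, 205 with N267star, 202 with ex2-3del and 209 with ex8-14del. It had the lowest ratio of the sub-group in WT (-0.16, -0.23 to -0.09), and the non-transfected library was its highest.

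For the remaining 16 synthetases (CARS, DARS, EPRS, FARSA, FARSB, GARS, HARS, IARS, KARS, LARS, MARS, NARS, RARS, SARS, VARS and YARS), log2 ratios in WT lay between -0.11 for VARS and 0.15 for NARS. The highest over the lowest of the 6 libraries was 1.05 times in KARS, the least of these 16, and 1.2 times in HARS, the most. NARS, the asparaginyl-tRNA synthetase, was higher in WT, M67V and N267star (0.15, 0.19 and 0.15) and not in ex2-3del or ex8-14del (-0.04 and -0.02). MARS, the methionyl-tRNA synthetase, overlaps DDIT3 on the opposite strand. DDIT3, which encodes the stress factor CHOP, had 6.47 CPM without transfection and 20.5 CPM with WT, and MARS had 296 and 283 CPM.

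HARS, the histidyl-tRNA synthetase, stood apart in ex2-3del, at 114 CPM against between 95.2 and 98.2 CPM in the other 5 libraries (0.22, 0.12 to 0.31, against non-transfected). WDR55, which overlaps HARS on the opposite strand in the annotation, was at 52.2 CPM in ex2-3del and between 66.9 and 72.3 CPM in the others. The part of reads passing between these 2 overlapping genes in the HARS value was not tested.

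Summed over each sub-group, synthetases had 5084 CPM without transfection, 5252 with WT and 5264 with M67V, with between 5138 and 5191 CPM in the other 3. Transporters summed to 1439 CPM without transfection, 1551 with WT and 1597 with M67V, but ex2-3del, at 1542 CPM, was close to WT. The serine and one-carbon genes summed to 1084 CPM without transfection, 1191 with WT, 1204 with M67V and 1182 with ex8-14del. The asparagine, cysteine and proline genes summed to 838 CPM without transfection, 912 with WT and 963 with M67V, above the 842 to 863 CPM of the other 3. A sum is led by its most abundant members, and SLC1A4 and CTH are among those with the fewest counts.

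The order of the 6 libraries was read in every member. WT and M67V, the alleles labelled wild type and missense, were both above the other 4 libraries in 10 of the 37 members (27.0%), against 10.3% of 11413 genes. These were AARS, GARS, WARS, PSAT1, MTHFD2, CTH, PYCR1, SLC7A11, SLC7A1 and SLC1A4, though in GARS the level in M67V, 348.6 CPM, was hardly above that in ex2-3del, 348.2 CPM. Both were below the other 4 in 3 members (FARSB, MARS and SLC1A5, 8.11%), against 9.18% of genes, and in 7 when scaled by library totals. Which libraries to set together was chosen with earlier results of these data known. In 7 of the 10 members, all but GARS, SLC7A11 and SLC7A1, ex8-14del was the next highest library, as it was in 28.3% of the 1171 genes with WT and M67V on top.

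The non-transfected library was the lowest of the 6 in 15 members (40.5%), against 16.3% of 11413 genes, and the highest in 4 members (10.8%), against 17.9%. The 15 included 5 of the 7 transporters and 6 of the 20 synthetases. All ratios to non-transfected cells share this 1 library, and its part in them was not tested. This count was chosen after the values were seen. The comparisons with WT as reference do not use it. Against WT, 3 members met the 0.322 criterion downwards in N267star (CTH, PYCR1 and SLC1A4), against 3.37% of 11286 genes. In ex2-3del 5 did (AARS, MTHFD2, CTH, PYCR1 and SLC1A4), against 3.6%, or 3 when scaled by library totals. In ex8-14del 3 did (CTH, SLC7A11 and SLC1A4), against 3.75%. No member met it upwards in these 3 comparisons, against 1.11%, 1.88% and 2.04% of genes. At 1.5-fold, CTH and SLC1A4 were lower in N267star and CTH alone in each deletion allele, where 1.34%, 1.27% and 1.14% of genes were. M67V against WT had 0 members past the 0.322 criterion, against 1.43% of genes higher and 0.965% lower.

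WT against N267star and M67V against ex2-3del are 2 comparisons that share no library. In both, CTH (0.76 and 0.61), SLC1A4 (0.68 and 0.59) and PYCR1 (0.48 and 0.70) had the highest log2 ratios of the 37 members. WARS, AARS, SLC7A1, MTHFD2 and PSAT1 followed, with ratios between 0.20 and 0.31 in WT against N267star and between 0.23 and 0.43 in M67V against ex2-3del. NARS was at -0.006 and 0.23, higher in the second alone. The members were higher in both comparisons in 15 cases (40.5%), lower in both in 11 and split in 11. Of 11212 genes, 30% were higher in both, 3829 were lower in both and 4019 were split. In M67V against ex2-3del, CTH, PYCR1 and SLC1A4 were at least 1.5-fold higher, against 1.42% of genes, and AARS and WARS also met the 0.322 criterion, against 3.65%. Scaled by library totals, 1 member was 1.5-fold higher there. Across the 37 members Pearson's r was 0.87, and across all 11212 genes without ATF6 it was 0.66. These are descriptions of genes measured in the same 4 libraries, and genes are not replicates. The r of the 37 members includes CTH, SLC1A4 and PYCR1, whose ratios were the highest. Across the synthetases alone r was 0.66, over 20 genes with a narrow range.

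**Figure D3:**
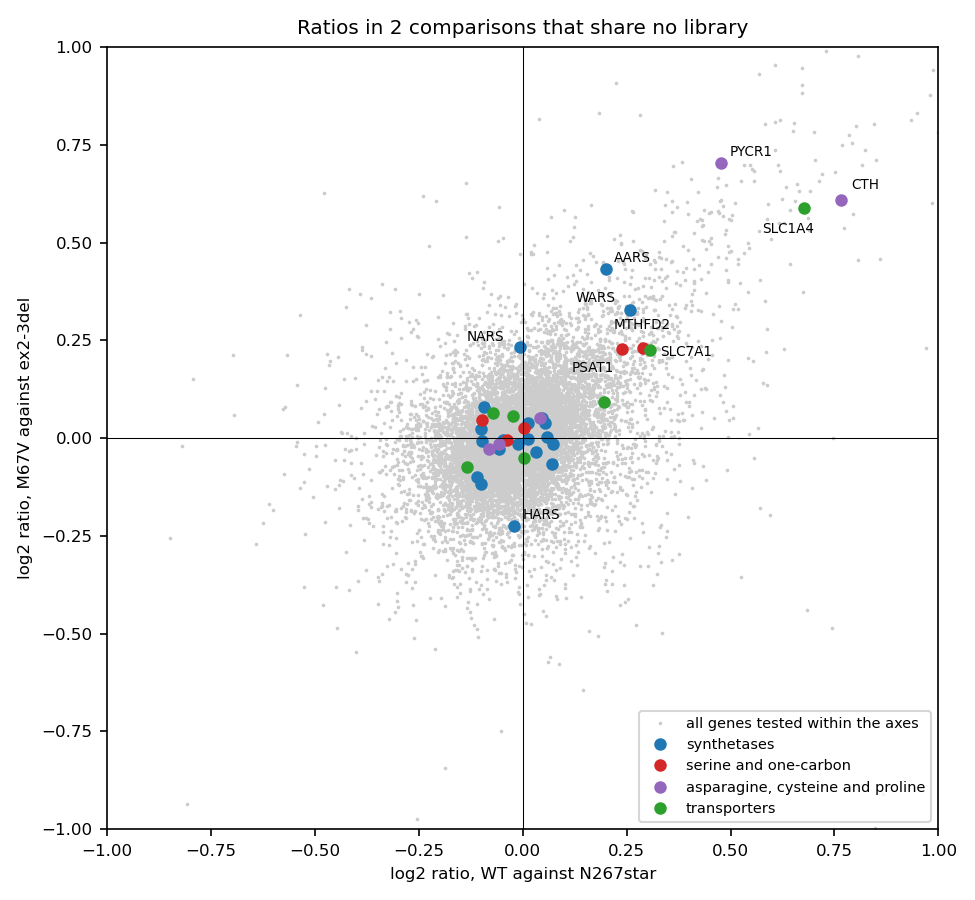
Log2 ratio of WT against N267star (horizontal axis) and of M67V against ex2-3del (vertical axis) for the 37 members, coloured by sub-group, over all tested genes within the axes (grey). PYCR1, CTH and SLC1A4 lie at the upper right, and most synthetases lie near the origin.

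Part of the ATF4 pathway around these genes was higher in WT, in M67V and in ex8-14del, and ATF4 itself hardly differed. ATF4 had 662 CPM without transfection, 671 with WT, 707 with M67V, 645 with N267star, 661 with ex2-3del and 713 with ex8-14del. The transcript level does not report the protein, whose amount is set largely at translation. Of 22 listed genes of the pathway, 19 held at least 5 CPM in WT or non-transfected cells, and 5 of them met the 0.322 criterion in WT, where 3.96% of all genes did, with a list median of 0.02. In M67V 5 did, where 3.84% of all genes did, with a median of 0.10. In ex8-14del 4 of the 18 tested did, where 1.59% of all genes did, also with a median of 0.10. N267star and ex2-3del each had 1 of 18, where 1.38% and 1.21% of all genes met the criterion upwards. EIF2AK3, the kinase PERK that acts upstream of ATF4 translation, stood at 1.46 (1.30 to 1.64) in WT and 1.30 (1.13 to 1.48) in M67V. DDIT3, which overlaps MARS, stood at 1.64 (1.34 to 1.99) and 1.65 (1.34 to 1.99). CHAC1, a glutathione-degrading enzyme, stood at 0.48 (0.16 to 0.82) and 0.64 (0.32 to 0.97). ATF3, an early stress factor, was higher in all 5 transfected libraries, from 0.49 in N267star to 0.72 in M67V. TRIB3, a pseudokinase that ATF4 and CHOP induce, was at -0.16 (-0.39 to 0.07) in WT and -0.07 (-0.30 to 0.16) in M67V.

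For scale, all 14 listed targets of ATF6 were at least 1.5-fold higher in WT, with a median of 1.60, and 13 were in M67V, with a median of 1.67. Those with the highest ratios in WT were HERPUD1 (2.82), HSPA5 (2.70), HSP90B1 (2.10) and PDIA4 (1.96). That list was chosen with earlier results of these data known. CTH, the member with the highest ratio in WT, lay below that median in both libraries. The mitochondrial synthetases are mostly encoded by separate nuclear genes. All 17 listed were tested, and their medians were -0.05 in WT and -0.03 in M67V. Of the 17, 0 met the 0.322 criterion in any comparison with the non-transfected library. Of all genes, between 1.21% and 3.96% met it upwards in these comparisons, and between 1.06% and 2.21% downwards. In WT 16 of the 17 ratios were below 0, while 48.0% of all genes were above 0. The whole interval lay below 0 for 4 of the 17, against 16.9% of all genes. In M67V 13 were below 0, in N267star 12 were (median -0.06), and in ex2-3del and in ex8-14del 9 were. Of all genes, 48.6%, 50.7%, 49.4% and 51.1% were above 0 in these libraries, in that order.

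**Figure D4:**
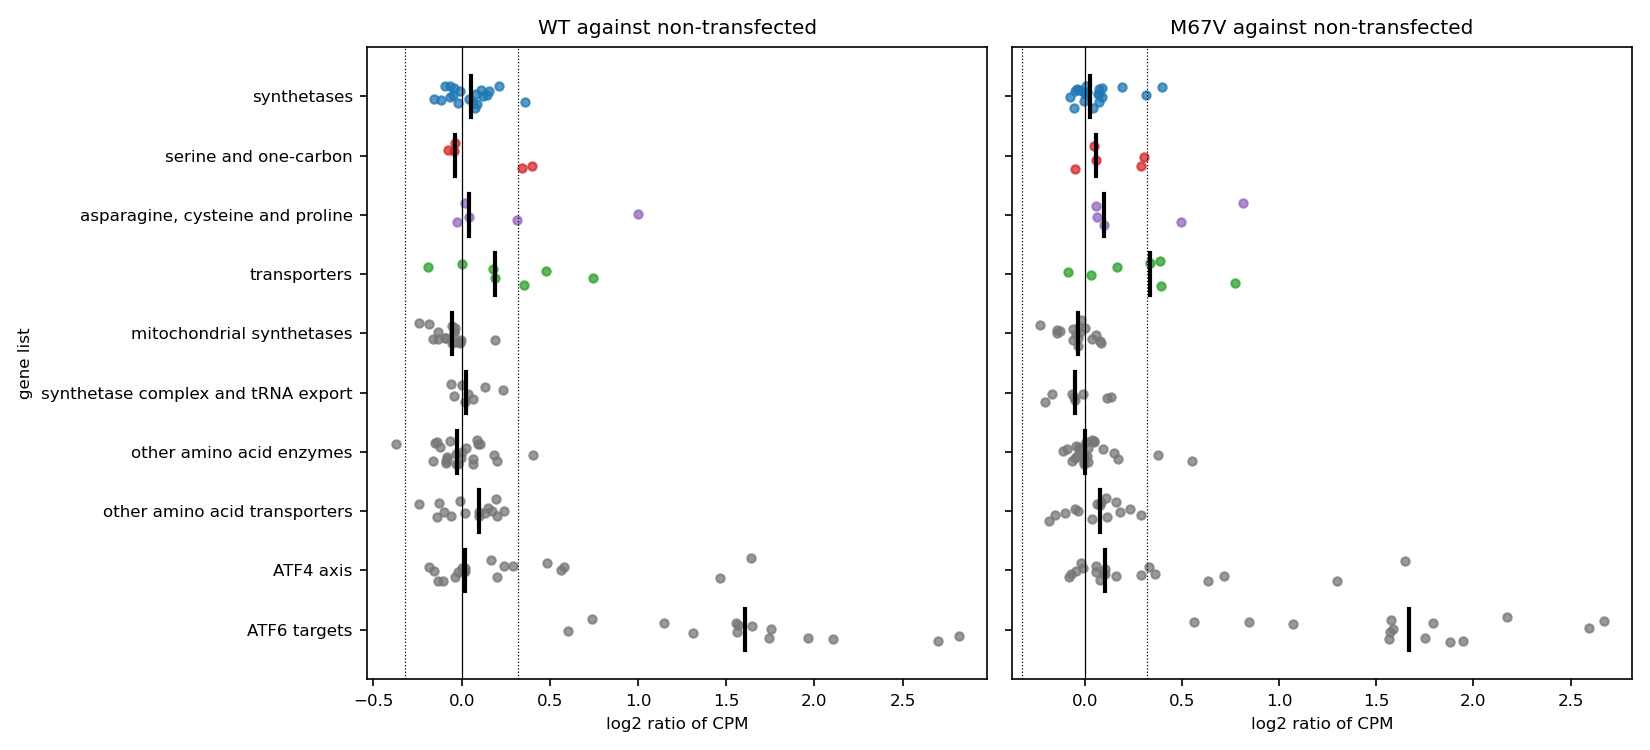
Log2 ratio of CPM (horizontal axis) of each gene (points) in 4 sub-groups of members (coloured) and 6 further gene lists (grey), in WT and in M67V against the non-transfected library. Black bars are list medians and dotted lines mark 0.322 either way. The ATF6 targets lie far to the right of the synthetases, and single members of the synthesis and transporter sub-groups lie between.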

How the data were processed

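RNA of 6 HEK293T cultures was sequenced at BGI, 1 library per group, and each sample's group is its labelled genotype. The authors deposited expected counts per gene symbol, that is estimated counts that need not be whole. Per the submitters' processing notes the build was GRCh37.p13 and DESeq was used. The sources used here do not give the aligner, the counting program or the strand setting. Between 3.46% and 3.55% of the values of a library were fractional. A placeholder of 0.028 for no reads was set to 0, and expected counts were rounded. Of 38072 rows, 28 with a name turned into a date were left out (0.215% to 0.231% of counts), and 94 rows sharing 43 symbols were summed. The authors' own comparison tables were not used. Another count table, with 6 columns of per-sample values, was not used because 1 column name matches no label.

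Library sizes were scaled with TMM factors between 0.985 and 1.01 (edgeR 4.0.16, R 4.3.3), and log2 ratios used a prior count of 2. Intervals are exact conditional Clopper-Pearson intervals at 95%. The libraries carried no molecular identifiers that the labels name, so intervals cover counting error only. No p-value was computed, and the criteria were tested on simulated data.

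The members and gene lists were chosen with earlier results of these data known. All members are accounted for. Levels in all libraries were to be given for the 3 highest and the lowest member of each sub-group in WT and for members past 1.5-fold. From each further list, up to 4 genes past 1.5-fold in WT or M67V with the largest ratio were named. SLC3A2, SLC7A5, SLC38A2, HARS, NARS, MARS, TRIB3, ATF4, GOT1, MTHFD2L, PYCRL and XPOT were singled out after their values were seen. Overlaps, by name only, came from the GENCODE v29 annotation, which holds 97.1% of the 11413 genes reaching 5 CPM. Of those, 24.8% overlap another expressed gene, as do 7 members, and 1 of these overlaps is not reported here. Alternatives were library totals, DESeq2 1.42.0 size factors, another prior count, unrounded counts, other level filters, a 2-fold criterion and leaving out overlapping members.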

Additional observations from a re-analysis of the deposited data

How the results depend on the processing

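Every log2 ratio of a single member stayed inside its counting interval under library totals, DESeq2 size factors, a prior count of 0.5 and unrounded counts (1480 of 1480 values), with shifts of at most 0.0364, under library totals. Of the counts of members recomputed under the alternatives, 215 stayed within 1.5 times and 11 did not, and of the medians 199 stayed within counting error and 1 did not. Every member held at least 5 CPM in every library, so the other level filters could not change any of these values. They gave 40 of the counts at 1 CPM, 40 without a filter and 50 of the medians. At 2-fold the 14 counts that stayed were already 0 at 1.5-fold and could not change either. Many of the remaining counts were also 0 at the main setting. At 2-fold in place of 1.5-fold, 0 members passed in WT and in M67V against the non-transfected library, 0 in N267star, ex2-3del and ex8-14del against WT, and 0 in M67V against ex2-3del. CTH in WT lies at that limit: its log2 ratio is 0.9999 with the prior count, and without it the 52.24 and 26.06 CPM are just past 2-fold, so the prior count decides that 0. With library totals, 1 member met the 0.322 criterion upwards in ex2-3del against the non-transfected library, as with DESeq2 size factors (1). Library totals also gave 3 members meeting it downwards in ex2-3del against WT, 1 member at least 1.5-fold higher in M67V against ex2-3del, and 7 members with WT and M67V both below the other 4. Without overlapping genes the median of the transporters in N267star against WT was -0.0998 in place of -0.0036, because 1 of 7 members was left out. The count of members with the non-transfected library lowest was 15 under both other scalings, an alternative chosen after seeing the data. No paired analysis was possible because each group holds 1 library. For the same reason no library could be left out of a comparison. PSPH, CTH and SLC1A4 have the fewest counts and the widest intervals.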

Other observations

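Among amino acid enzymes and carriers outside the 37 members, few stood apart. Of 24 further enzymes tested, GOT1 was the single one past the 0.322 criterion upwards in WT (0.41, 0.29 to 0.52), or 1 of 24 against 3.96% of all genes. It was also higher in M67V (0.55, 0.44 to 0.67) and ex8-14del (0.42, 0.31 to 0.54) but not beyond counting error in N267star (-0.04, -0.16 to 0.08) or ex2-3del (0.05, -0.07 to 0.17). GOT1 encodes the cytosolic aspartate aminotransferase. In M67V 2 of the 24 met the criterion upwards, against 3.84% of all genes, the other being MTHFD2L (0.37, 0.01 to 0.75), a relative of MTHFD2. In ex8-14del 2 of the 24 met it upwards, against 1.59% of all genes. PYCRL, a relative of PYCR1, was lower in WT (-0.38, -0.53 to -0.22) and in N267star (-0.34, -0.49 to -0.19), and its interval spanned equality in M67V (-0.07, -0.21 to 0.08). Of 15 further amino acid carriers tested, 0 met that criterion in WT or in M67V, with medians of 0.10 and 0.08. In ex8-14del 1 of the 15 met it upwards, against 1.59% of all genes. A further list held 8 genes, namely LARP4 and genes of the synthetase complex, mitochondrial glutaminyl-tRNA formation and tRNA export. Of these 8, 0 met the 0.322 criterion in any comparison with the non-transfected library. Of all genes, between 1.21% and 3.96% met it upwards in these comparisons, and between 1.06% and 2.21% downwards. Exportin-t (XPOT), which carries tRNAs out of the nucleus, was above the non-transfected library in all 5 transfected libraries, from 0.12 in ex8-14del to 0.23 in WT.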
